A study of Mus musculus with 18 samples.

Results

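The mitochondrial ribosomal protein genes were taken as all genes whose symbol begins with Mrpl or Mrps and continues with a number and at most 1 letter, with pseudogenes left out. The annotation holds 78 such genes, none of them a pseudogene, and 76 of them (47 Mrpl and 29 Mrps) stood among the 15544 genes measured. The other two, Mrpl33 and Mrpl53, were not analysed here. All 76 passed the filter on low levels, a mean of at least 6 log2 units, so every measured member was tested. They lie on 17 chromosomes. The rule itself uses no expression value.

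Total RNA was sequenced from lung cells of mice aged 10 to 12 weeks, captured on magnetic beads by the epithelial surface protein EpCAM. The groups were Falcor-/- mice, which lack the long non-coding RNA Falcor (n = 5, replicates 6 to 10), Foxa2+/- mice, with 1 intact copy of the forkhead transcription factor gene Foxa2 next to Falcor (n = 4, replicates 11 to 14), Double-Het mice, heterozygous at both loci (Falcor+/-;Foxa2+/-, n = 4, replicates 15 to 18), and wild-type mice (n = 5, replicates 1 to 5). The sources used here do not give how the alleles were made, nor the sex, litter and strain of the mice. Values are log2 expression levels, 1 per gene and library, and a change is a difference of 2 mean log2 levels.

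The mitochondrial ribosome translates the few messages encoded in mitochondrial DNA, which specify core subunits of the respiratory chain and of ATP synthase. Its RNAs come from mitochondrial DNA, but its proteins are encoded in the nucleus, made in the cytosol and imported. The small subunit, built mostly of Mrps products, holds the message and decodes it, and the large subunit, built mostly of Mrpl products, joins the amino acids. Alveolar type 2 cells and ciliated cells of the lung epithelium are known for their many mitochondria.

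Nuclear genes for mitochondrial proteins are known as targets of NRF1, of the ETS-family factor GABP and of YY1, so promoters were searched for the letters of their core motifs. RefSeq gave a promoter window, 250 bases before to 50 bases after a start site (build GRCm38.p6), for 67 of the 76 genes. On either strand, CCGGAAG (ETS) stood in 24 of these genes, 35.8%, against 9.93% of the 27025 genes in the table. The NRF1 motif stood in 14 genes, 20.9% against 7.0%, and AAGATGGC (YY1) in 12 genes, 17.9% against 3.19%. At least 1 of these 3 motifs was found in 42 of the 67 genes, 62.7%, against 17.9% of all genes. The 3 motifs were not particular to the members. Among 61 cytosolic ribosomal protein genes with a window, ETS stood in 41.0%, NRF1 in 13.1% and YY1 in 11.5%. Among 64 genes of nuclear-encoded oxidative phosphorylation subunits, NRF1 stood in 18 (28.1%), ETS in 16 and YY1 in 9 (14.1%). In both sets each of these shares was above that of all genes. No motif searched contains the letters of another. CCAAT was found in 25 genes, 37.3% against 41.1%, and TATAAA in 5 genes, 7.46% against 15.7%. TGTTTAC, a core of the forkhead motif that was added after the data were seen, was found in 2 genes, 2.99% against 4.05%. These matches describe letters and not bound sites.

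The promoter windows of 4 genes whose levels carry the results below are shown, 5′ to 3′ on the strand of the gene, with the motif matches in capitals. Mrpl16 (chr19:11770165-11770464, plus strand) has TATAAA 68 bases before its start site. Mrpl22 (chr11:58171414-58171713, plus strand) has the ETS letters 53 bases before it. Mrps27 (chr13:99344536-99344835, plus strand) has the ETS letters 48 bases before and the YY1 letters 15 bases after the start. Mrps9 (chr1:42850983-42851282, plus strand) has CCAAT 86 bases before and the NRF1 letters 5 bases before it. The window of Mrps6, the member with the largest change in Falcor-/- cells, held none of these motifs.
Mrpl16: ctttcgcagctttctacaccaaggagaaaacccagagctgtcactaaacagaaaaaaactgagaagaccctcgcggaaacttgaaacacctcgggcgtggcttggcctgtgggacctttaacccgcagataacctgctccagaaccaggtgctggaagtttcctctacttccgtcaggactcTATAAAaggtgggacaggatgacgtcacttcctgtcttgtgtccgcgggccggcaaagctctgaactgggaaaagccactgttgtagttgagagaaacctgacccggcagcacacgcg
Mrpl22: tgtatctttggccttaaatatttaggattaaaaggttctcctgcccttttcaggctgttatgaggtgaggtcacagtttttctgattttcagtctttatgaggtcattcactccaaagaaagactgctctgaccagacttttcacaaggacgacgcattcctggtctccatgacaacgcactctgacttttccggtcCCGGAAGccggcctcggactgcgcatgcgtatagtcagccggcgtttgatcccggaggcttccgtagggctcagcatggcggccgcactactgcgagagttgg
Mrps27: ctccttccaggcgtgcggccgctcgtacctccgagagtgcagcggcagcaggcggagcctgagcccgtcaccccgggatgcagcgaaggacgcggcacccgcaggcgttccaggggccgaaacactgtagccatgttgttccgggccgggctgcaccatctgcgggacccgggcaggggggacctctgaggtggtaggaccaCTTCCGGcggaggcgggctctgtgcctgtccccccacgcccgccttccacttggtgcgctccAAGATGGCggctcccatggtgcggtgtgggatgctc
Mrps9: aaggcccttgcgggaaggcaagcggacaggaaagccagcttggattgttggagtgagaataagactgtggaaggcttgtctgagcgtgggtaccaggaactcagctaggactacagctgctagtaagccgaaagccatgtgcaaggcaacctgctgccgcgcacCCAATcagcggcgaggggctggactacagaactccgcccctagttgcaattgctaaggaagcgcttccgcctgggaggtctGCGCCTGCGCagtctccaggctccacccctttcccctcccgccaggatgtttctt

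Several facts of the whole set of libraries bear on what follows. The Falcor transcript (9030622O22Rik) changed by -3.98 log2 units in Falcor-/- cells against wild type, and Foxa2 by -0.57 and -0.60 in Foxa2+/- and Double-Het cells. Falcor itself averaged 11.70 in Foxa2+/- and 11.66 in Double-Het libraries, above the 10.18 of wild-type libraries. The 16 epithelial markers averaged 15.49 ± 0.10 in Falcor-/-, 15.38 ± 0.06 in Foxa2+/-, 15.52 ± 0.09 in Double-Het and 15.32 ± 0.06 in wild-type libraries (SD over libraries). The 24 endothelial markers averaged 11.99 ± 0.69, 10.78 ± 0.22, 10.31 ± 0.27 and 12.77 ± 0.58 in the same order of genotypes, so these captures held RNA of other cells as well. Their summed level ran from 11.24 to 13.10 in Falcor-/-, 10.62 to 11.09 in Foxa2+/-, 9.97 to 10.63 in Double-Het and 11.77 to 13.27 in wild-type libraries, given as the mean of the list. Pecam1, 1 of these endothelial markers, averaged 13.15 in Falcor-/-, 11.78 in Foxa2+/-, 11.39 in Double-Het and 13.91 in wild-type libraries. None of the 24 endothelial genes was above wild type in any mutant genotype, and 2, 21 and 22 passed the test as lower in Falcor-/-, Foxa2+/- and Double-Het cells. Over all genes, 4.24%, 4.15% and 7.57% passed as lower. Of 12 macrophage markers 6, 0 and 6 passed as lower in the same order of genotypes, but 5, 7 and 2 of the 12 were above zero. Their median changes were -0.999, 0.04 and -1.12, and their mean levels 11.7, 12.7 and 11.3, against 12.8 in wild-type libraries. Of 17 mesenchymal markers 4, 8 and 14 were lower, with median changes of -0.91, -1.09 and -2.18 and mean levels of 10.7, 10.2 and 9.54, against 11.6 in wild-type libraries. The part of macrophage and mesenchymal RNA in the members' changes was not tested. In such bulk samples, fewer cells of a type and less RNA per cell cannot be told apart.

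The mean level of a member over the 18 libraries ran from 9.35 for Mrps18b, one of the small subunit's S18-like proteins, to 12.26 for Mrps9, a protein of the small subunit's head. Whether the values are per length is not given, so this is no order of abundance. The median member was at the middle of the table, with 38 of 76 above the median gene's mean of 11.01 log2 units. Within a genotype the members varied little, with a median residual SD of 0.180 log2 units against 0.209 over all genes.

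The 76 genes moved up and down together from library to library. Each gene's level was set against its own mean over the 18 libraries, and the median of these deviations was taken in each library. In the Falcor-/- libraries, replicates 6 to 10, the median deviation was 0.01, -0.14, 0.28, 0.31 and 0.11 log2 units. In the Foxa2+/- libraries, replicates 11 to 14, it was -0.02, -0.01, -0.09 and -0.07. In the Double-Het libraries, replicates 15 to 18, it was 0.23, 0.28, -0.15 and -0.15, and in the wild-type libraries, replicates 1 to 5, it was -0.16, -0.13, -0.17, -0.08 and 0.02. The Falcor-/- and Double-Het groups thus each held libraries on both sides of zero, whereas the Foxa2+/- libraries lay close together and 4 of the 5 wild-type libraries lay below zero.

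Counted gene by gene, 75 of 76 members were above their own mean in Falcor-/- replicate 8, 72 in replicate 9 and 62 in replicate 10, but 44 in replicate 6 and 6 in replicate 7. In Foxa2+/- libraries the counts were 30, 33, 17 and 22. In Double-Het replicates 15 and 16 the counts were 73 and 75, and in replicates 17 and 18 they were 11 and 5. In wild-type libraries they were 4, 9, 0, 12 and 43. The Mrpl and Mrps genes did this alike, with median deviations of 0.31 and 0.30 in Falcor-/- replicate 9 and of 0.26 and 0.29 in Double-Het replicate 16. Once the median of the members in each library was subtracted, the median SD of a member over the 18 libraries fell to 0.110, against 0.196 before.

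**Figure D1:**
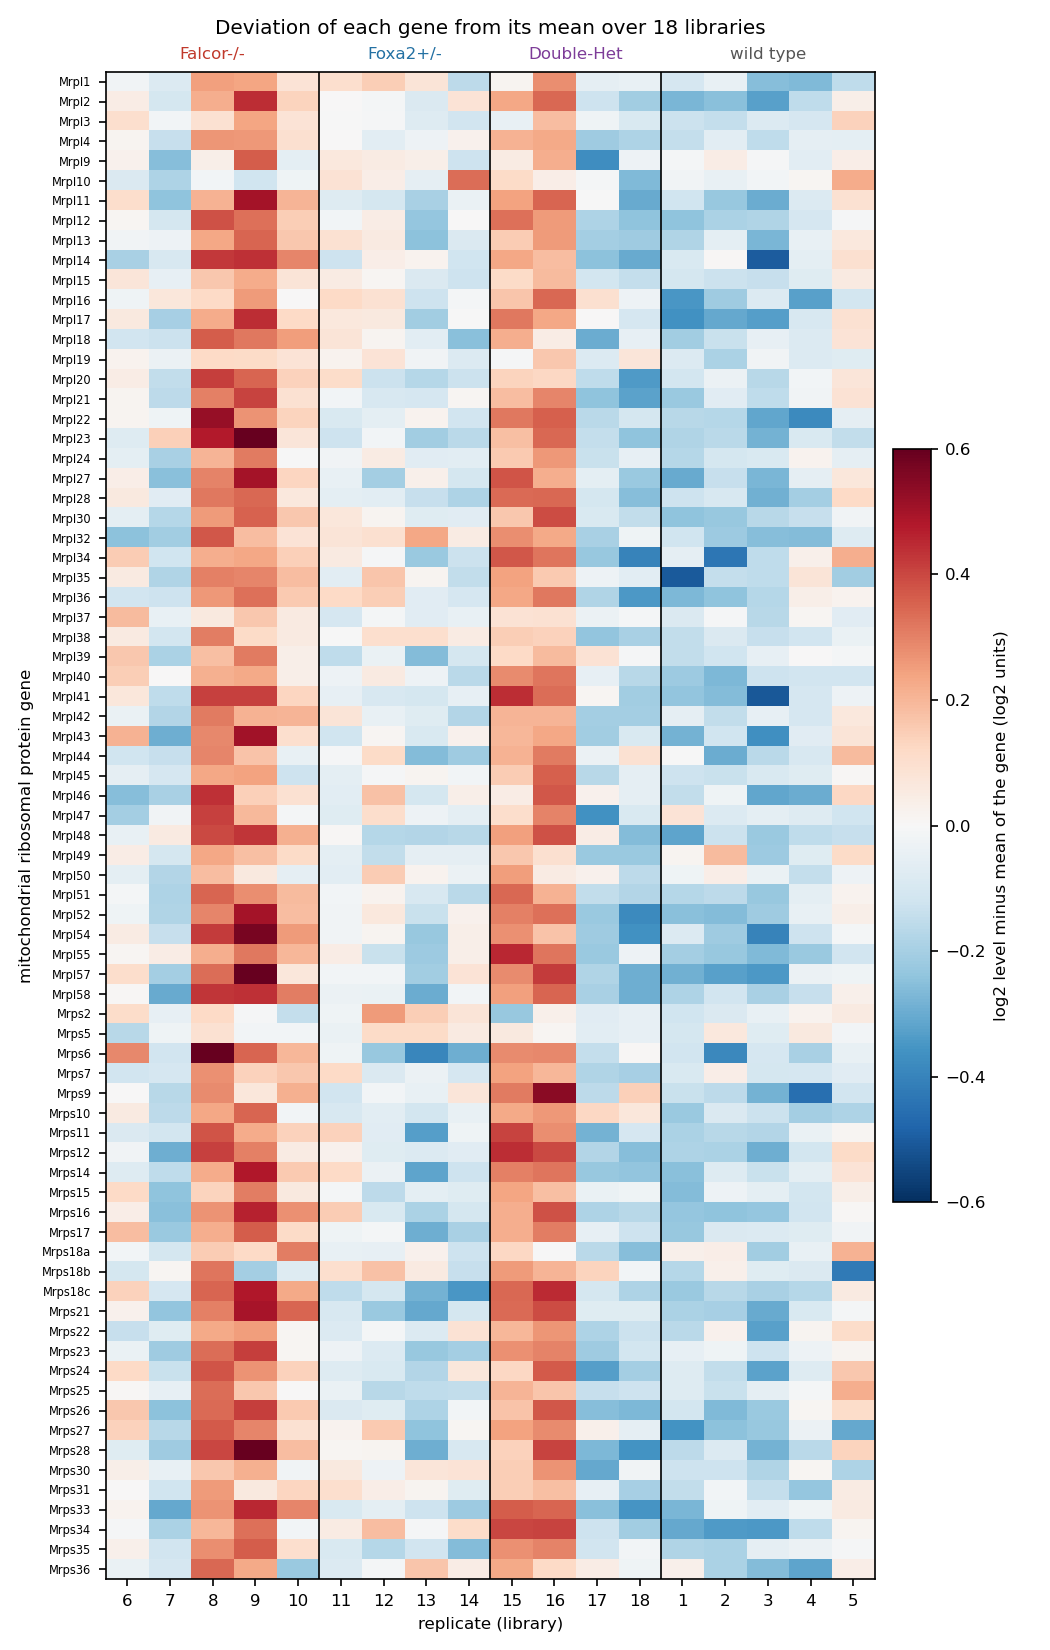
Deviation of each of the 76 genes (rows) from its own mean over the 18 libraries (columns, by replicate number and genotype), in log2 units, with colours limited to ±0.6. Falcor-/- replicates 8 and 9 and Double-Het replicates 15 and 16 are high in 72 to 75 of 76 genes, and Falcor-/- replicate 7, Double-Het replicates 17 and 18 and wild-type replicates 1 to 4 are low in most.

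The mean level over the 76 genes was 11.08 ± 0.18 log2 units in Falcor-/-, 10.93 ± 0.05 in Foxa2+/-, 11.02 ± 0.22 in Double-Het and 10.86 ± 0.08 in wild-type cells (SD over libraries, n = 5, 4, 4 and 5). By library it ran from 10.84 to 11.27 in Falcor-/-, 10.87 to 10.96 in Foxa2+/-, 10.82 to 11.23 in Double-Het and 10.78 to 10.98 in wild-type cells. Each mutant range overlapped that of wild type.

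In Falcor-/- cells, 5 of the 76 genes (6.58%) rose and none fell against wild type at an adjusted p below 0.05 by limma with Benjamini-Hochberg adjustment over all 15249 genes tested. The share of all genes that passed this test was 9.47% (5.23% higher and 4.24% lower). Their direction was one-sided, with 74 of 76 changes above zero, a median of 0.22 and quartiles of 0.16 and 0.30, against 54.0% of all genes above zero and a median of 0.03. An unadjusted p below 0.05 was reached by 38 of 76 members and by 33.5% of all genes. The 5 that rose were Mrpl48, Mrps6, Mrps27, Mrpl16 and Mrpl22. The count rested on single libraries: it was 35 without Falcor-/- replicate 7, 2 without Falcor-/- replicate 6, 1 without wild-type replicate 3 or 4, and 0 without Falcor-/- replicate 8, 9 or 10 or wild-type replicate 1 or 2. The share of all genes that passed moved as well, to 25.7% without Falcor-/- replicate 7, 4.61% without replicate 6, 9.14% and 4.36% without wild-type replicates 3 and 4, and 2.32% to 7.33% in the runs with no member. The median change stayed between 0.18 and 0.29 in these 10 runs. With the endothelial marker mean as a covariate, no member passed, beside 0.944% of all genes, and the members' median was 0.21. In this same comparison 6 of 12 macrophage and 4 of 17 mesenchymal markers passed as lower, and 5 of the 12 macrophage markers were above zero.

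Mrps6, the counterpart of bacterial S6 in the small subunit, had 10.45, 10.05, 10.78, 10.51 and 10.36 log2 units in Falcor-/- libraries, against 10.05, 9.78, 10.06, 9.97 and 10.12 in wild-type libraries. All Falcor-/- libraries but replicate 7 lay above the highest wild-type library. The change was 0.44 (SE 0.13, adjusted p = 0.0427 by limma), or 135% of the wild-type level, and the exact permutation p was 0.0238. Mrps6 shares 159 exonic bases on the same strand with Slc5a3, a myo-inositol transporter gene, whose own change was -0.14 (adjusted p = 0.648 by limma). It also shares 305 exonic bases on the same strand with Gm49711, a protein-coding gene not analysed here.

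Mrpl48, a protein of the central protuberance of the large subunit, had 11.27, 11.36, 11.71, 11.74 and 11.52 log2 units in Falcor-/- libraries, against 11.00, 11.18, 11.09, 11.16 and 11.18 in wild-type libraries. The groups did not overlap. The change was 0.40 (SE 0.11, adjusted p = 0.0370 by limma), and the exact permutation p of 0.00794 is the smallest that 5 against 5 libraries allow. A pseudogene copy 98.1% identical over 636 bases, Mrpl48-ps, averaged 7.01 in Falcor-/- and 7.56 in wild-type libraries (adjusted p = 0.259 by limma). Mrpl48 also shares 708 exonic bases with Rab6a on the opposite strand.

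Mrpl22, which lines the tunnel through which the new chain leaves, had 10.00, 9.95, 10.50, 10.25 and 10.12 log2 units in Falcor-/- libraries, against 9.81, 9.81, 9.67, 9.60 and 9.93 in wild-type libraries. The groups were separate by a narrow gap, with a change of 0.40 (SE 0.12, adjusted p = 0.0484 by limma). Mrpl16, a large-subunit protein related to bacterial L16 that lies near the transfer RNAs, had 10.30, 10.39, 10.45, 10.58 and 10.33 log2 units in Falcor-/- libraries. In wild-type libraries it had 9.97, 10.12, 10.25, 10.00 and 10.22, all below the Falcor-/- values. Its change was smaller, 0.30, and so was its error (SE 0.09, adjusted p = 0.0451 by limma).

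Mrps27, a small-subunit protein with pentatricopeptide repeats and no bacterial counterpart, had 10.20, 9.90, 10.43, 10.36 and 10.16 log2 units in Falcor-/- libraries, against 9.71, 9.82, 9.84, 10.03 and 9.76 in wild-type libraries. Only Falcor-/- replicate 7 lay within the wild-type range, and the change was 0.38 (SE 0.11, adjusted p = 0.0431 by limma). The calls of these 5 genes were fragile: leaving out 1 library at a time, Mrpl16 and Mrpl48 missed the threshold in 7 of 10 runs, and Mrpl22, Mrps6 and Mrps27 in 8 of 10, with adjusted p up to 0.114, 0.0958, 0.112, 0.102 and 0.105 in that order.

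Members just short of the threshold had changes of similar size. Mrpl55 and Mrpl40, both of the central protuberance, changed by 0.36 and 0.29 with an adjusted p of 0.0504 each, and Mrpl23, at the mouth of the exit tunnel, by 0.42 with an adjusted p of 0.0512 (limma). In 6 genes, Mrpl16, Mrpl22, Mrpl23, Mrpl40, Mrpl48 and Mrpl55, every Falcor-/- library was above every wild-type library, against 4.22% of all genes. The members with changes below zero were Mrpl10, which anchors the stalk that binds translation factors, at -0.12 (adjusted p = 0.321 by limma), and Mrps5, related to bacterial S5, at -0.01 (adjusted p = 0.915).

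**Figure D2:**
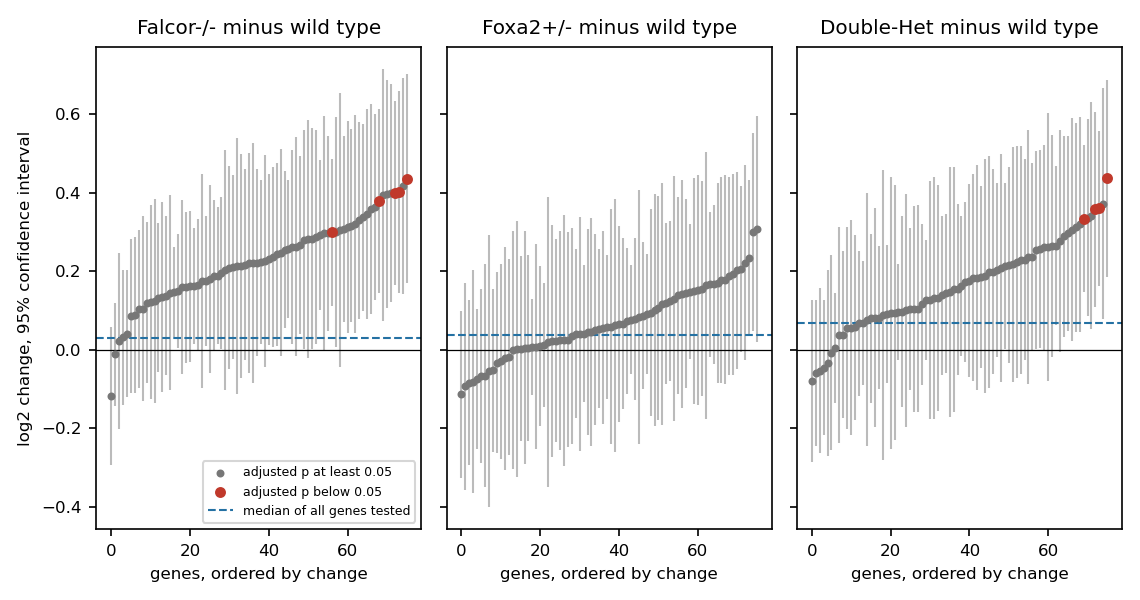
Log2 changes of the 76 genes against wild type with 95% confidence intervals, ordered within each panel, for Falcor-/-, Foxa2+/- and Double-Het cells. Red points passed an adjusted p below 0.05 (5, 0 and 4 genes) and the dashed line is the median of all genes tested (0.03, 0.04 and 0.07 log2 units).

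In Foxa2+/- cells no member passed the test against wild type, whereas 6.11% of all genes did (1.96% higher and 4.15% lower, limma). An unadjusted p below 0.05 was reached by 3 of 76 members (3.95%) and 19.2% of all genes. The median change was 0.06, beside 0.04 over all genes, and 62 of 76 members were above zero, against 59.4% of all genes. Under cyclic loess normalisation 44 of 76 members were above zero, beside 7834 of all 15249 genes. The smallest p-values belonged to Mrpl32, which is cleaved in the mitochondrion before it joins the large subunit, and to Mrpl16 and Mrps34. Mrpl32 had 11.31, 11.33, 11.46 and 11.28 log2 units in Foxa2+/- libraries, against 11.11, 11.01, 10.98, 10.97 and 11.15 in wild-type libraries. The groups did not overlap, and the change of 0.30 had an adjusted p of 0.168 (limma).

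Mrpl16 changed by 0.23 (adjusted p = 0.172) and Mrps34, a small-subunit protein without a bacterial counterpart, by 0.31 (adjusted p = 0.222, limma). Mrps34 shares 763 exonic bases with Nme3 on the same strand and 1309 with Mapk8ip3 on the opposite strand, so its level can hold reads of theirs, which was not tested. The lowest changes were -0.11 for Mrps25, -0.08 for Mrpl49 and -0.08 for Mrpl39, with adjusted p of 0.618, 0.737 and 0.715 (limma). For 3 members, Mrpl32, Mrpl38 and Mrps9, every Foxa2+/- library was above every wild-type library, against 5.97% of all genes. No member had every Foxa2+/- library below every wild-type library, against 5.48% of all genes. In this same comparison 21 of 24 endothelial and 8 of 17 mesenchymal markers were lower. With library weights 3 members passed, and with the 2 genotypes fitted alone 1 did, beside 12.8% and 7.49% of all genes.

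In Double-Het cells 4 of 76 members (5.26%) rose and none fell against wild type, at a background of 14.8% of all genes (7.21% higher and 7.57% lower, limma). The median change was 0.16 and 70 of 76 were above zero, against a median of 0.07 and 61.1% of all genes. Unadjusted p was below 0.05 for 16 of 76 members (21.1%) and for 29.8% of all genes (limma). The genes that rose were Mrpl16, Mrps10, Mrps9 and Mrps27. The count was 0 without Double-Het replicate 16, 1 without replicate 15, 8 without replicate 18 and 4 without replicate 17, and 3 without any 1 wild-type library. Over all genes the shares were 8.8%, 9.01%, 16% and 13.3% in the runs without a Double-Het library, in that order, and 10.8% to 13.9% in the others. The median change was 0.09 to 0.24 in these 9 runs. With the endothelial marker mean as a covariate no member passed, at a median of 0.12, and 1 of all genes did. This marker mean did not overlap between the groups, at 9.97 to 10.63 in Double-Het and 11.77 to 13.27 in wild-type libraries. Covariate and genotype are thus confounded in this fit, and no conclusion is drawn from the lost calls. Macrophage markers passed as lower here for 6 of 12, with 2 of the 12 above zero, and mesenchymal markers for 14 of 17.

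Mrps10, a protein of the small subunit's head, had 10.89, 10.92, 10.78 and 10.73 log2 units in Double-Het libraries, against 10.44, 10.57, 10.53, 10.46 and 10.48 in wild-type libraries. As in Mrpl16, and in 8.61% of all genes, all 4 Double-Het libraries were above all wild-type libraries, including replicates 17 and 18, in which most members were low. The change was 0.33 (SE 0.09, adjusted p = 0.0180 by limma), with an exact permutation p of 0.00794, the smallest possible.

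Mrpl16 had 10.49, 10.67, 10.42 and 10.30 log2 units in Double-Het libraries, all above the 9.97 to 10.25 of the wild-type libraries listed above. Its change was 0.36 (SE 0.09, adjusted p = 0.0164 by limma), and its call was lost in 1 of the 9 runs that left out a library, that without Double-Het replicate 16, where the adjusted p was 0.0724.

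Mrps9, a neighbour of Mrps10 in the head, had 12.57, 12.80, 12.10 and 12.40 log2 units in Double-Het libraries, against 12.13, 12.10, 11.98, 11.81 and 12.14 in wild-type libraries. Double-Het replicate 17 lay inside the wild-type range. The change was 0.44 (SE 0.12, adjusted p = 0.0205 by limma). Mrps27 had 10.30, 10.34, 10.09 and 10.01, the last within the wild-type range of 9.71 to 10.03, with a change of 0.36 (SE 0.12, adjusted p = 0.0498 by limma), and missed the threshold in 7 of the 9 leave-one-out runs. The lowest members were Mrps18a at -0.08, Mrpl10 at -0.06 and Mrps2, a small-subunit protein with a bacterial counterpart, at -0.05, with adjusted p of 0.615, 0.677 and 0.736 (limma).

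The Falcor-/- and Double-Het comparisons share the 5 wild-type libraries. Mrpl16 and Mrps27 passed in each of them, with changes of 0.30 and 0.36 for Mrpl16 and 0.38 and 0.36 for Mrps27. Against the same wild-type libraries, Mrps6, Mrpl48 and Mrpl22 changed by 0.44, 0.40 and 0.40 in Falcor-/- cells and by 0.28, 0.30 and 0.32 in Double-Het cells, where their adjusted p was 0.178, 0.102 and 0.109. Mrps10 and Mrps9 changed by 0.26 and 0.31 in Falcor-/- cells, with an adjusted p of 0.0564 and 0.0768, and by 0.33 and 0.44 in Double-Het cells (limma).

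**Figure D3:**
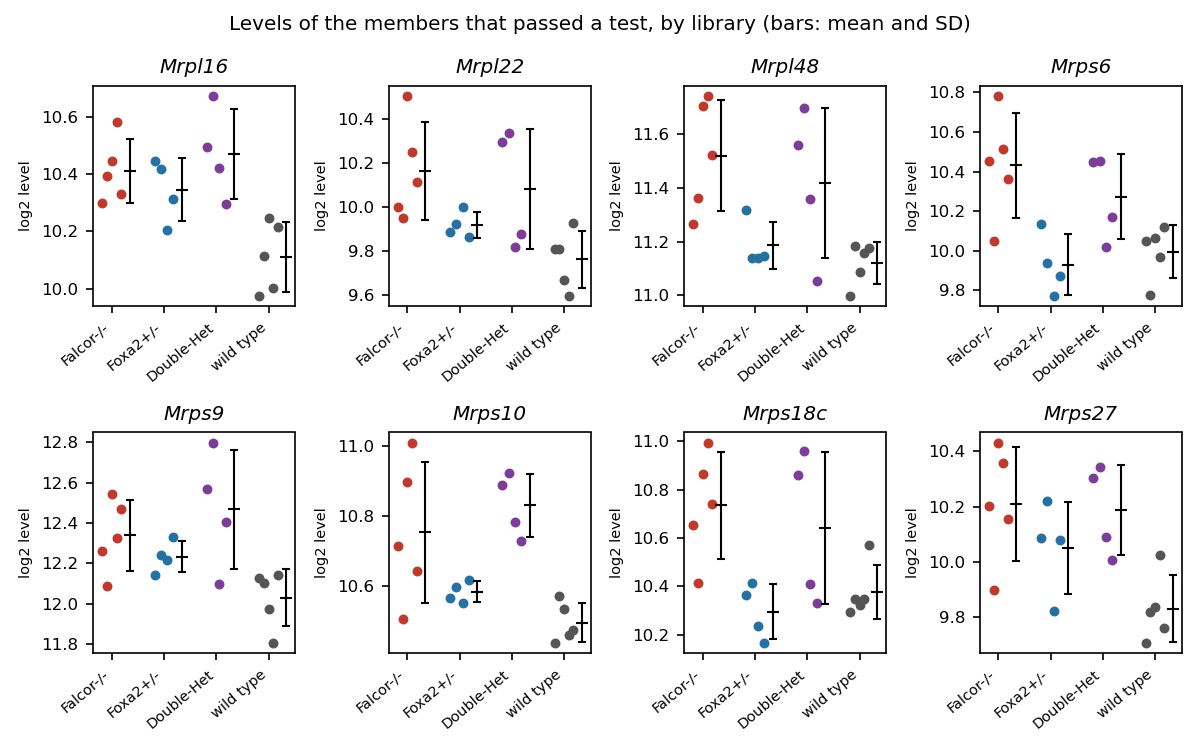
Log2 levels of the 8 genes that passed a test in any comparison, by library and genotype, with the mean and SD beside the points. Vertical axes differ and do not start at zero. Mrpl16 in wild-type libraries lies at 9.97 to 10.25, below all Falcor-/- and Double-Het libraries, whereas Mrps18c separates Falcor-/- (10.42 to 11.00) from Foxa2+/- (10.17 to 10.41).

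Between mutant genotypes, 2 of 76 members (2.63%) were higher in Falcor-/- than in Foxa2+/- cells, at a background of 16.7% of all genes (8.56% higher and 8.1% lower, limma). Unadjusted p was below 0.05 for 11 of 76 members (14.5%) and for 36.3% of all genes (limma). Mrps6 had 10.05 to 10.78 in Falcor-/- and 9.77 to 10.14 in Foxa2+/- libraries, with replicate 7 alone inside the lower range, and a change of 0.50 (SE 0.13, adjusted p = 0.0221 by limma). Mrps18c had 10.65, 10.42, 10.87, 11.00 and 10.74 in Falcor-/- libraries, against 10.36, 10.41, 10.23 and 10.17 in Foxa2+/- libraries. Every Falcor-/- library was above every Foxa2+/- library, as in 6.86% of all genes. The change of Mrps18c was 0.44 (SE 0.13, adjusted p = 0.0359 by limma). The count was 15 without Falcor-/- replicate 7, 1 without Falcor-/- replicate 8, 9 or 10 or Foxa2+/- replicate 12, and 0 without Foxa2+/- replicate 13 or 14. Over all genes the share was 31.1% without Falcor-/- replicate 7 and 5.01% to 15.7% in the other runs. The count was 3 without Falcor-/- replicate 6, and the median change, 0.17 in all libraries, stayed at 0.12 to 0.23.

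No member passed between Double-Het and Foxa2+/- cells (background 2.43%, 1.06% higher and 1.37% lower) or between Double-Het and Falcor-/- cells (background 5.15%, 2.15% higher and 3.0% lower, limma). In these 2 comparisons 7 (9.21%) and 0 of 76 members had an unadjusted p below 0.05, beside 18.2% and 21.2% of all genes (limma). The smallest p of the first of these comparisons was that of Mrpl39, at the exit tunnel, with 11.78, 11.84, 11.74 and 11.65 in Double-Het and 11.50, 11.61, 11.39 and 11.55 in Foxa2+/- libraries. Its change was 0.24 (adjusted p = 0.163 by limma). It and Mrps10 and Mrps21 had every Double-Het library above every Foxa2+/- library, against 6.54% of all genes, and no member had every Double-Het library above every Falcor-/- library, against 3.36%. Against Falcor-/- cells the median change was -0.06 with 16 of 76 above zero, beside 54.1% of all genes. Weighting libraries by their scatter around the genotype means turned the members' median to 0.03 with 49 above zero, beside 8719 of 15249 genes. Without Double-Het replicate 18 it was 0.01 with 42 above zero, and without Double-Het replicate 15 or 16 it was -0.13 with 9 or 8 above zero. The smallest p there was that of Mrpl20, with a change of -0.22 and an interval of -0.47 to 0.03 (adjusted p = 0.302 by limma).

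The changes are given here by place in the ribosome. The 8 proteins of the central protuberance had median changes of 0.29, 0.09 and 0.22 in Falcor-/-, Foxa2+/- and Double-Het cells against wild type, with 1, 0 and 0 passing. The 8 proteins of the exit tunnel rim had 0.15, 0.05 and 0.19, with 1, 0 and 0 passing. The stalk proteins Mrpl10, Mrpl11 and Mrpl12 had medians of 0.28, 0.07 and 0.18, none passing, and within this list Mrpl10 at -0.12 stood apart from its partners, which reached 0.28 and 0.30 in Falcor-/- cells. The 16 small-subunit proteins with a bacterial counterpart had medians of 0.24, 0.03 and 0.19 with 1, 0 and 2 passing, and the 10 without one had 0.19, 0.02 and 0.11 with 1, 0 and 1 passing. Over all genes tested the 3 medians were 0.03, 0.04 and 0.07, and 9.47%, 6.11% and 14.8% of genes passed.

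The S18 family differed among themselves. Mrps18c, of the small subunit, averaged 10.73 ± 0.22 in Falcor-/-, 10.29 ± 0.11 in Foxa2+/-, 10.64 ± 0.32 in Double-Het and 10.38 ± 0.11 in wild-type libraries. Mrps18b, also of the small subunit, averaged 9.34 ± 0.20, 9.40 ± 0.13, 9.49 ± 0.12 and 9.20 ± 0.17 in that order. Mrps18a, which sits in the large subunit despite its name, averaged 11.23 ± 0.16, 11.09 ± 0.06, 11.06 ± 0.17 and 11.14 ± 0.15. None of them passed a test against wild type, where changes ran from -0.08 to 0.36. Mrps18b has a pseudogene copy 99.8% identical over 417 bases, and its lowest value of the 18, 8.92, was in wild-type replicate 5, where most other members were near or above their mean.

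Some products have further roles or a misleading name. Mrps30, a large-subunit protein, changed by 0.19, 0.17 and 0.14 in Falcor-/-, Foxa2+/- and Double-Het cells against wild type (adjusted p 0.155, 0.376 and 0.335). Mrps36, known in mammals as a part of the 2-oxoglutarate dehydrogenase complex, changed by 0.18, 0.17 and 0.23 (adjusted p 0.266, 0.497 and 0.215). Mrpl58, a peptidyl-tRNA hydrolase built into the large subunit, changed by 0.30, 0.02 and 0.15 (adjusted p 0.155, 0.964 and 0.537, all by limma).

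The steadiest members within genotypes were Mrpl37, Mrpl19, Mrps5 and Mrpl3, with residual SDs of 0.0717, 0.0761, 0.0765 and 0.100 log2 units. Mrpl37, a large-subunit protein without a bacterial counterpart, averaged 12.19 ± 0.09 in Falcor-/-, 12.05 ± 0.04 in Foxa2+/-, 12.14 ± 0.07 in Double-Het and 12.04 ± 0.07 in wild-type libraries. The most variable were Mrps28, Mrpl57, Mrps33 and Mrpl14, with residual SDs of 0.275, 0.256, 0.249 and 0.243. Mrps28 ran from 10.34 to 11.24 in Falcor-/-, 10.26 to 10.57 in Foxa2+/-, 10.20 to 10.96 in Double-Het and 10.27 to 10.69 in wild-type libraries, so its spread within Falcor-/- and Double-Het cells exceeded any difference between genotypes. The steady genes have 4460 (Mrpl37), 5450 (Mrpl19), 6578 (Mrps5) and 6661 (Mrpl3) exonic bases, and the variable ones 783 (Mrps28), 2956 (Mrpl57), 1667 (Mrps33) and 949 (Mrpl14).

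Gene length moved with the shared pattern. The members are short, with a median of 2394 exonic bases (607 to 8631) against 4189 over all genes, and 39 of 76 lay in the shortest 25% of genes (at most 2543 bases) and 8 in the longest 25%. The 3648 other genes among the shortest 25% had median deviations of 0.05, -0.09, 0.25, 0.24 and 0.11 in Falcor-/- replicates 6 to 10. They had -0.01, -0.01, -0.07 and -0.06 in Foxa2+/-, 0.20, 0.22, -0.10 and -0.08 in Double-Het, and -0.17, -0.13, -0.11, -0.08 and -0.02 in wild-type libraries. These values had the sign of the members' values in every library but wild-type replicate 5, and the longest 25% had the opposite sign, -0.15 and -0.18 in Falcor-/- replicates 8 and 9. RNA quality and depth are not known for these libraries, and their part in this was not tested.

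With each library's trend of level on exonic length removed, a step chosen after seeing the data, the members' median deviations shrank to -0.08 to 0.15 in Falcor-/-, -0.06 to -0.01 in Foxa2+/-, -0.12 to 0.11 in Double-Het and -0.13 to 0.07 in wild-type libraries. The members' median changes against wild type were then 0.09, 0.01 and 0.04 in Falcor-/-, Foxa2+/- and Double-Het cells, with 56, 42 and 51 of 76 above zero. Over all 14739 genes with a length in this fit, 7142, 7488 and 7421 were above zero. Of the members 2, 0 and 3 passed, against 6.57%, 7.27% and 14.9% of all genes. Mrpl48 still rose in Falcor-/- cells (0.50, adjusted p = 0.0455), and Mrpl10 passed as lower (-0.33, adjusted p = 0.0220). In Double-Het cells Mrpl16 (0.26, adjusted p = 0.0299), Mrps10 (0.35, adjusted p = 0.0481) and Mrps9 (0.41, adjusted p = 0.0438) still passed (limma).

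**Figure D4:**
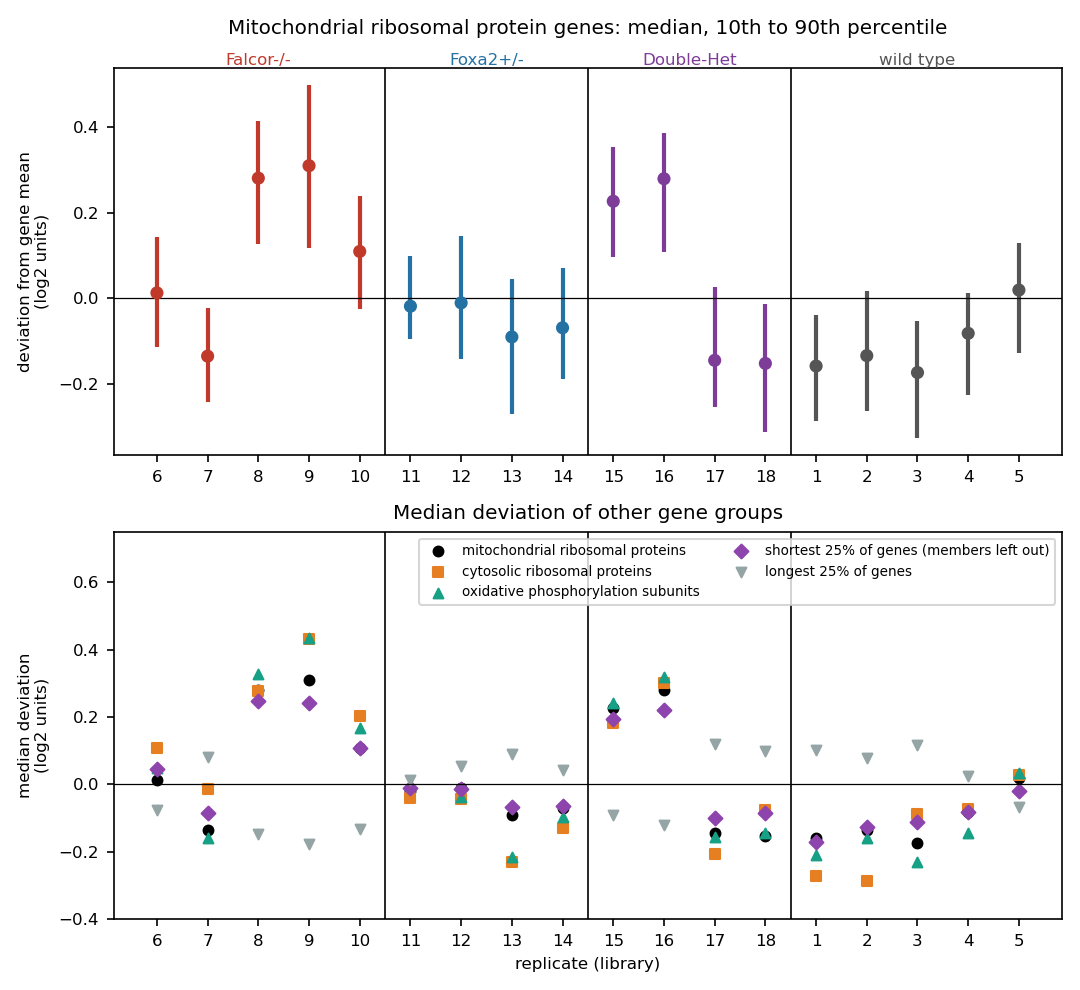
Upper panel: median deviation of the 76 genes from their own means in each library, with the 10th to 90th percentile, in log2 units. Lower panel: the same median for cytosolic ribosomal proteins, oxidative phosphorylation subunits and the shortest and longest 25% of genes. The members run from -0.17 in wild-type replicate 3 to 0.31 in Falcor-/- replicate 9. Cytosolic ribosomal proteins run from -0.29 in wild-type replicate 2, and oxidative phosphorylation subunits from -0.23 in wild-type replicate 3, each to 0.43 in Falcor-/- replicate 9. The shortest 25% of genes have the members' sign in every library but wild-type replicate 5, and the longest 25% run the other way.

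The cytosolic ribosome and other gene groups of the mitochondrion were set beside the members. Over all genes tested, 9.47%, 6.11% and 14.8% passed against wild type in Falcor-/-, Foxa2+/- and Double-Het cells. The 82 cytosolic ribosomal proteins had a median change of 0.35 in Falcor-/- cells against wild type, with 42 higher (51.2%) and none lower. Their median was 0.03 in Foxa2+/- cells with none passing, and 0.19 in Double-Het cells with 6 higher (7.32%). Among these 82 genes, Rpl15 (0.39, adjusted p = 0.0123 by limma) and Rps24 (0.73, adjusted p = 0.00329) rose in Falcor-/- cells. The 82 nuclear-encoded subunits of oxidative phosphorylation had medians of 0.32, 0.05 and 0.20, with 11 higher in Falcor-/- cells (13.4%). In Double-Het cells 3 of them were higher and 2 lower (6.1% together). In Foxa2+/- cells 1 was higher, Cox6a2 at 1.04, and 1 lower, Ndufa4l2 at -2.82 (2.44% together). Ndufa6, a complex I subunit, rose by 0.45 in Falcor-/- cells (adjusted p = 0.0310 by limma). The 24 import proteins had medians of 0.27, 0.06 and 0.16, and the import channel and motor proteins Timm17a (0.38) and Pam16 (0.42) rose in Falcor-/- cells (adjusted p 0.0334 and 0.0359).

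Genes that assemble or serve the mitochondrial ribosome were also set beside the members. Of 25 assembly factors, 1 (4%), 0 and 3 (12%) were higher in Falcor-/-, Foxa2+/- and Double-Het cells than in wild type. The shares of all genes that passed were 9.47%, 6.11% and 14.8%. The medians of the assembly factors were 0.10, 0.11 and 0.12. Rbfa, a ribosome-binding factor for the small subunit, had 11.40, 11.21, 11.39, 11.72 and 11.65 log2 units in Falcor-/- libraries, against 10.85, 10.87, 11.07, 11.14 and 11.30 in wild-type libraries (change 0.43, adjusted p = 0.0267 by limma). In Double-Het cells the pseudouridine synthase-like Trub2 rose by 0.31 and the GTPase Gtpbp10, which helps build the large subunit, by 0.63 (adjusted p 0.0140 and 0.0233).

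Of 15 translation factors, 1 was higher and 1 lower in Falcor-/- cells (13.3% together, beside 9.47% of all genes), at a median of -0.01. The elongation factor Tsfm rose by 0.35 (adjusted p = 0.0451 by limma). Mtfmt, which formylates the initiator methionyl-tRNA, had 9.94, 10.07, 10.18, 10.19 and 9.97 in Falcor-/- libraries, all below the wild-type values of 10.34, 10.28, 10.30, 10.39 and 10.27 (change -0.25, adjusted p = 0.0494). Oxa1l, the insertase that receives new chains, rose by 0.28 in Double-Het cells (adjusted p = 0.0270 by limma). Of 22 aminoacyl-tRNA synthetases and related enzymes, Fars2 rose in Falcor-/- cells (0.31, adjusted p = 0.0221), and Vars2 rose in Foxa2+/- (0.30, adjusted p = 0.0299) and Double-Het cells (0.47, adjusted p = 0.000586). The medians were 0.09, 0.08 and 0.12.

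Of 20 genes of mitochondrial DNA transcription and its regulators, Esrra, a nuclear receptor of mitochondrial genes, rose by 0.38 in Falcor-/- cells and 0.29 in Double-Het cells (adjusted p 0.0101 and 0.0194 by limma), and Mterf1a by 0.70 in Double-Het cells. The medians of this list were -0.02, 0.11 and 0.06, and in Falcor-/- cells 8 of the 20 genes were above zero. The 11 measured messages encoded in mitochondrial DNA, the templates of the mitochondrial ribosome, had median changes of 0.10, -0.08 and -0.07 with none passing in any of the 3 comparisons, and 2, 2 and 1 at an unadjusted p below 0.05. The 5 measured mitochondrial ribosomal proteins with other names, Dap3, Ptcd3, Chchd1, Aurkaip1 and Gadd45gip1, had medians of 0.18, 0.11 and 0.24, and none passed (2, 1 and 1 at an unadjusted p below 0.05). Over all genes tested, 33.5%, 19.2% and 29.8% reached an unadjusted p below 0.05 in these 3 comparisons (limma).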

How the data were processed

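RNA-seq of 18 libraries was analysed as log2 levels, 1 per gene and library, deposited by the authors. STAR, the build mm9 and limma are named, without settings, in the submitters' processing notes. No source used here gives the read counter, annotation, strand setting or versions. Values ran from 1 to 18.73. At the same rank no library departed from another by more than 0.0512 log2 units within the top 90% of ranks, the mark of quantile normalisation, so changes are relative within a library. Depth is unknown, and no counting interval can be given. That 2 is the base of the logarithm is inferred from this range and the use of limma.

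Symbols and exonic lengths were looked up by Ensembl identifier in GENCODE vM21, build GRCm38 (14994 matched, 550 did not), with no coordinates carried between builds. Promoter sequences came from RefSeq on GRCm38.p6. Exons overlapped another gene in 31 members, 27 of them on the opposite strand, and 18 members had a pseudogene copy at least 95% identical over at least 200 bases, so their levels can hold shared reads.

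limma 3.58.1 (R 4.3.3) estimated a mean for each genotype from the 18 libraries together. Variances were moderated by empirical Bayes with a trend on level, leaving 14 degrees of freedom per gene and 17 after moderation. The fit took in the 15249 genes with a mean of at least 6, leaving out 295. Tests were 2-sided with Benjamini-Hochberg adjustment over all genes tested and a threshold of 0.05, and SE comes from the model. Exact permutation tests are 2-sided and cannot go below 0.00794, or 0.0286 for 4 against 4 libraries. The code was tested on simulated data. No label says that libraries come from separate animals, so p-values measure the spread between these libraries.

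Members and lists were chosen with earlier results of these data known. Genes named were, for each comparison with wild type, up to 6 passing members in each direction by smallest p, or the 3 with the smallest p. To these were added passing members (up to 4) or the smallest p between mutants, the S18 paralogs, Mrps30, Mrps36 and Mrpl58, the 4 most and 4 least variable members, the 3 of lowest mean, and up to 3 passing genes per other list. Mrpl55, Mrpl40, Mrpl23 and the members with separate groups were named after their values were seen.

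Alternatives were no trend, no filter, a filter at 8, library weights, the compared genotypes alone, cyclic loess, trimmed mean centring, an endothelial covariate, leaving out each library, and a length correction.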

Additional observations from a re-analysis of the deposited data

Results flagged for a closer look

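In 8 of the 140 groups of 4 or 5 libraries looked at for the named genes and list means, 1 library stood farther from its nearest neighbour than Dixon's 95% critical value allows, which is 5.71%, where chance alone flags about 1 in 20. In Foxa2+/- cells these were replicate 11 for Mrpl20 (11.43 log2 units), Mrpl48 (11.32) and Mrps25 (10.53), each above the other three, replicate 12 for Mrpl49 (11.06), below them, and replicate 13 for Mrpl58 (11.21), below them. In wild-type cells replicate 5 was above the other four for Mrpl10 (11.96), Mrpl3 (11.52) and Mrps18c (10.57). The median member was at 0.02 in wild-type replicate 5, the highest of that group.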

How the results depend on the processing

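No paired analysis was possible because the replicate numbers run from 1 to 18 and no 2 genotypes share one. The number of members passing against wild type in Falcor-/- cells, 5, became 8 with a filter at a mean of 8, 24 with library weights, 1 with the 2 genotypes alone, 1 with cyclic loess, 0 with the endothelial covariate and 2 with the length trend removed, and 0 to 35 without 1 library. In that order 10.6%, 22.6%, 3.17%, 9.33%, 0.944% and 6.57% of all genes passed, and 2.32% to 25.7% without 1 library. In Foxa2+/- cells, 0 became 3 with library weights and 1 with the 2 genotypes alone, and stayed 0 without 1 library. Over all genes the shares were 12.8%, 7.49% and 3.65% to 7.33% in that order. In Double-Het cells, 4 became 36, 2, 2 and 0 with library weights, the 2 genotypes alone, cyclic loess and the endothelial covariate, and 0 to 8 without 1 library. Beside these stood 32.4%, 13.2%, 12.7% and 0.00656% of all genes, and 8.8% to 16% without 1 library. In Falcor-/- against Foxa2+/- cells, 2 became 8, 0, 4 and 0 under the same alternatives, and 0 to 15 without 1 library. The shares of all genes were 31.2%, 7.74%, 16.9% and 0.525%, and 5.01% to 31.1% without 1 library. In Double-Het against Foxa2+/- cells, 0 became 10 with library weights, beside 13.9% of all genes. The members' count in Double-Het against Falcor-/- cells was 0 throughout. The endothelial marker mean did not overlap between Double-Het and wild-type libraries, so that covariate is confounded with genotype there. Library weights raised the calls over all genes too, to 22.6% in Falcor-/- and 32.4% in Double-Het cells against wild type, and the endothelial covariate lowered them to 0.944% and 0.00656%. The cause of these shifts was not tested. The named members gave 90 results, none of which changed sign while past the threshold in either fit. Over 1650 alternatives, 1543 stayed on the same side of the threshold, 78 lost their call and 29 gained one. The 1543 can include changes of sign where neither fit passed the threshold. The members' median change stayed above zero without any 1 library in each comparison with wild type. Depth is unknown, so no limit from counting could be set.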
